A study of Homo sapiens with 6 samples.

Results

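The DNA replication genes described here are 44 genes chosen by symbol: subunits of the origin recognition complex, the licensing factors, the MCM helicase and its activators, the replicative polymerases, the sliding clamp and its loader, Okazaki fragment enzymes, RPA subunits, chromatin assembly factor 1, and cyclins E with E2F1. All 44 were found once each among the 20263 genes of the table, and all 44 passed the filter on low counts, with no count of a member under 386 in any library. Messenger RNA was sequenced from 6 libraries of THP-1, an established human monocytic line from an acute myeloid leukaemia. A hairpin against GOT1, the gene of the cytosolic aspartate aminotransferase, was expressed in 3 libraries (shGOT1), whose genotype label is GOT1 knockdown. The other 3 carried a control hairpin (shNC) and are labelled wt. The labels name 1 GOT1 hairpin and no rescue, so off-target effects of that hairpin cannot be told apart from effects of losing GOT1. Other differences between the shGOT1 and shNC cell populations, such as in the chromosome 1 stretches below, cannot be told apart from either. The labels call the libraries biological replicates without saying whether these were separate cultures. The p-values therefore cover only the spread among the libraries, which may be technical. No treatment or time after transduction is given.

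Total counts were 26226977 to 39144890 per library. GOT1 itself was listed at 3.27, 2.87 and 3.33 TPM under its hairpin and at 15.3, 16.7 and 16.3 TPM in controls, where TPM is a transcript level scaled to gene length and library size. Of 9 monocytic markers all were detected, with summed levels of 1129 to 1197 TPM in shGOT1 and 1611 to 1636 TPM in shNC, 3 higher and 4 lower by the test. The lower sum rests on LYZ, the lysozyme gene, at 83.9, 66.0 and 66.6 TPM against 534, 553 and 568 TPM. Without LYZ the other 8 summed to 1063 to 1113 TPM in shGOT1 and 1058 to 1087 TPM in shNC, which overlap. That sum hides calls in both directions. By log2 fold change of shGOT1 over shNC, CD14 (-1.05) and CSF1R (-0.85) were among the lower genes and MPO (0.67) among the higher. The T lymphocyte markers CD3E, CD3G and CD2, the epithelial markers EPCAM and CDH1 and the fibroblast markers COL1A2, COL3A1 and DCN were at 0 in every library. B lymphocyte markers summed to 23.9 to 28.6 TPM in shGOT1 and 13.1 to 15.3 TPM in shNC, with 4 tested and all 4 higher, and MS4A1 at 0. Erythroid, epithelial and fibroblast markers summed to at most 5.55 TPM in any library, and T lymphocyte markers to at most 0.407 TPM. At these low levels KRT8 (log2 fold change 0.77), COL1A1 (0.93) and PDGFRB (0.48) were called higher and KRT18 (-3.66) lower. The part of these marker differences in the values below was not tested.

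Replication starts when the origin recognition complex, with CDC6 and CDT1, loads paired rings of MCM2 to MCM7 on DNA in G1, a step called licensing. Cyclin-dependent and DBF4-dependent kinases then let CDC45 and the GINS complex join the ring, which becomes the moving helicase, and polymerases, clamp and loader copy the strands behind it. Many of these genes are textbook targets of E2F transcription factors, and their messenger RNA is highest around the G1 to S transition in cycling cells.

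The replication genes stood slightly but widely higher in the shGOT1 libraries. Of the 44 members, 22 were higher, 3 were lower and 19 did not pass the threshold (edgeR's quasi-likelihood test on counts, Benjamini-Hochberg adjusted p under 0.05 over all genes tested). Among all 13735 genes tested, 21.9% were called higher and 22.8% lower. The 22 of 44 called higher are thus a larger share than the background, and the 3 called lower a smaller one. The members were chosen with earlier results of these data known, and how far that choice bears on these shares was not tested. The log2 fold change of shGOT1 over shNC was positive for 39 members, and for 50.5% of all genes tested. Its median was 0.19 over the members and 0.0045 over all genes tested. The changes were small. Among called members the median absolute log2 fold change was 0.25, against 0.42 among all called genes, and 1 called member differed at least 2-fold. Since these are bulk samples, a larger share of cells in S phase and more of these transcripts per cell cannot be told apart.

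**Figure D1:**
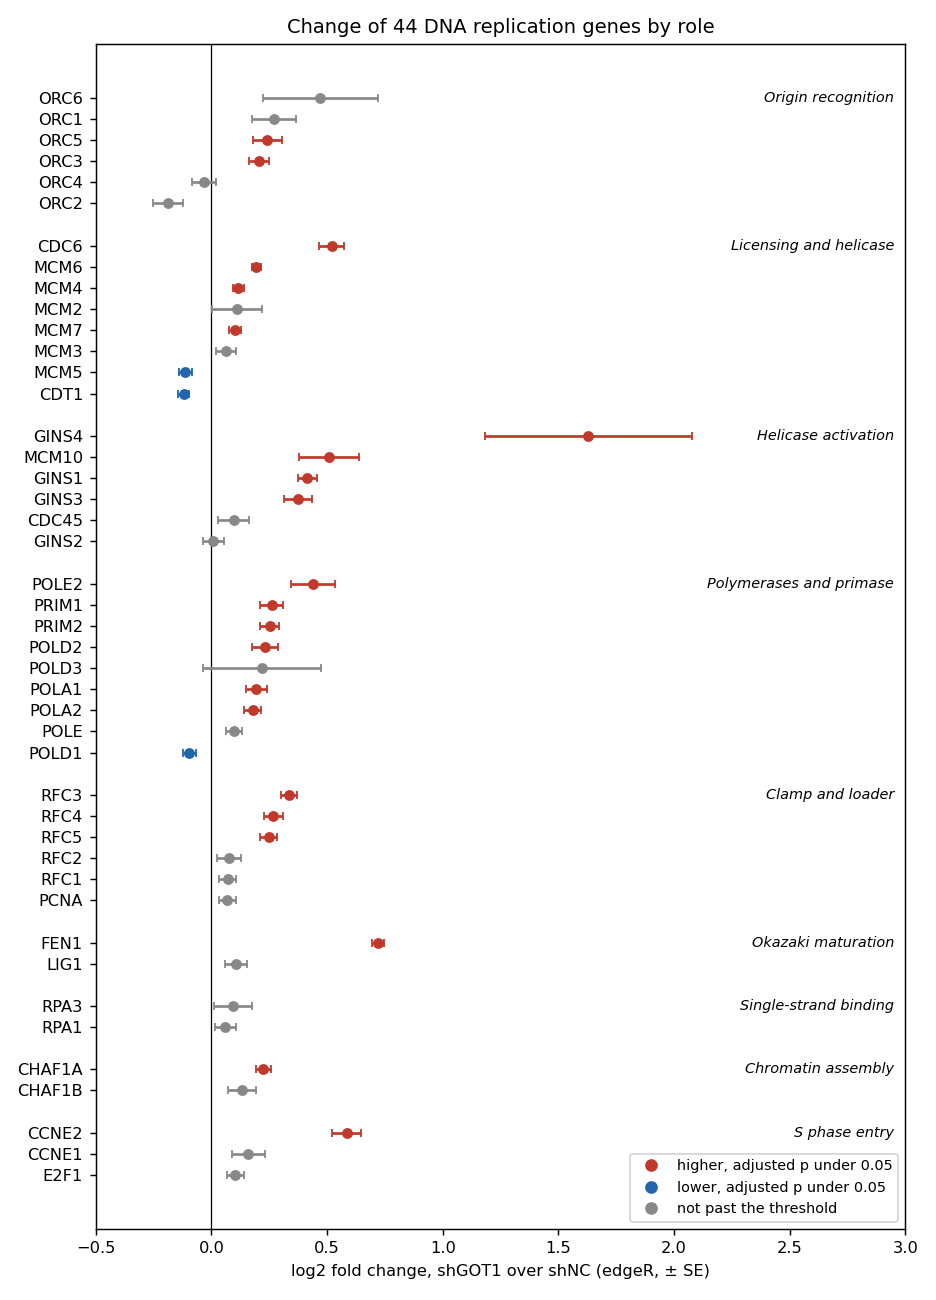
Fitted log2 fold change (edgeR, counts, shGOT1 relative to shNC) of each of the 44 members, with bars of 1 SE, grouped by role on the vertical axis. Points for 22 genes past the threshold lie to the right of 0 and for 3 (CDT1, MCM5 and POLD1) to the left, and GINS4 has the largest value and the widest bar.

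Promoter letters were compared because E2F and CCAAT motifs are textbook features of replication gene promoters. A larger share among the members can thus follow from how they were chosen, and says nothing about their change. A RefSeq promoter of 300 bases (GRCh38.p14, from 250 before the start of the RefSeq entry to 50 after it, a start that can differ from the gene's start in the table) was matched by symbol for 38 members and not for MCM4, MCM5, GINS4, POLD3, CCNE2 and RPA3. An E2F word was searched as TTTCCCGC, TTTGGCGC, TTTCGCGC or TTTGCCGC on either strand, and the CCAAT box as CCAAT on either strand. At least 1 of the E2F words was in 18 of the 38 member promoters (47.4%) and in 6.24% of the promoters of 10486 other tested genes. CCAAT was in 22 of 38 (57.9%) and in 42.8% of the others. Median GC content was 65.8% in member promoters and 64.7% in the others. Among matched members, an E2F word was present in 10 of 19 that were called higher, 1 of 2 called lower and 7 of 17 not called. A match describes these letters only. The promoters below are those of the 4 members with the largest called rises, and of the called falls, that hold a searched word and have 1 entry in the table. Each is written 5′ to 3′ on the strand of its gene, with the searched words in capitals, on either strand. CDC6 lies at chr17:40287629-40287928 (plus strand), MCM10 at chr10:13161308-13161607 (plus), POLE2 at chr14:49688165-49688464 (minus), GINS1 at chr20:25407423-25407722 (plus) and CDT1 at chr16:88803539-88803838 (plus).
CDC6: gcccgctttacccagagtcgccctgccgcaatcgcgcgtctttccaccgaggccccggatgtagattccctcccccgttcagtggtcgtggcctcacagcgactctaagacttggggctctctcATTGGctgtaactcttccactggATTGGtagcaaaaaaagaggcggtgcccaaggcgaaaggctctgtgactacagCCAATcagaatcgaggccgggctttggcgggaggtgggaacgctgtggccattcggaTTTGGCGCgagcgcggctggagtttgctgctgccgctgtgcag
MCM10: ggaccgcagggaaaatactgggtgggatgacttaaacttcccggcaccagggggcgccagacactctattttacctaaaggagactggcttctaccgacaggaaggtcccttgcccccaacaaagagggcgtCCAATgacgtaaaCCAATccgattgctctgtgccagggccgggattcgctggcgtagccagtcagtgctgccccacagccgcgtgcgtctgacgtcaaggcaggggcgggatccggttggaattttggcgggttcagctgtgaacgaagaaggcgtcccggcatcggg
POLE2: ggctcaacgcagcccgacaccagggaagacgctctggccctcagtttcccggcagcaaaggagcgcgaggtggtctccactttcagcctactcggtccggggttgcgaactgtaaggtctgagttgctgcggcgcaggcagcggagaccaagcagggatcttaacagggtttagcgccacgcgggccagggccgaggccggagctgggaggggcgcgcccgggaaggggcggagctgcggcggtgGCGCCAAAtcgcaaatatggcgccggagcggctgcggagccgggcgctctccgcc
GINS1: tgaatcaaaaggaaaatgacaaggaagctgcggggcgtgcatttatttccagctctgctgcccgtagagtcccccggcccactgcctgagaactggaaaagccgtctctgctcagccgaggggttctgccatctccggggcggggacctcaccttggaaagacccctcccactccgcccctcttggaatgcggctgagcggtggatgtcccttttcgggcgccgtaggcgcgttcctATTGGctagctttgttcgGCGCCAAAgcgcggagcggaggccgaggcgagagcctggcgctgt
CDT1: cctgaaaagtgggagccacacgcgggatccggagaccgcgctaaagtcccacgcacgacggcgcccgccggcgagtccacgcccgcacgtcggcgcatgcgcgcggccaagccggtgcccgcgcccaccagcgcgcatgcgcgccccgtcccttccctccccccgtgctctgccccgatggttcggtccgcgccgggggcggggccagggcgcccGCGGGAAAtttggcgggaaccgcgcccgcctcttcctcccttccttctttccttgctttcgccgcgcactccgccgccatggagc
Counted from the start of the RefSeq entry as 1, and not from the gene's start in the table, the E2F word TTTGGCGC begins at position 8 in CDC6, and its reverse complement GCGCCAAA at -5 in POLE2 and at 6 in GINS1. CDC6 also holds CCAAT or its complement at -126, -103 and -50. MCM10 holds CCAAT at -118 and -105 and none of the E2F words. CDT1, which was called lower, holds GCGGGAAA, the reverse complement of TTTCCCGC, at -35. FEN1, the member with the smallest adjusted p, holds none of the searched words in this window.

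The origin recognition complex marks the places where helicases are loaded, and 2 of its 6 genes were higher while 4 did not pass. Counts by role, here and below, are to be read against the 21.9% of all genes called higher and 22.8% lower. ORC3, a core subunit, was listed at 38.4, 36.1 and 38.4 TPM in shGOT1 and 30.8, 28.6 and 31.3 TPM in shNC. The groups did not overlap, and the difference on the log2 scale was 0.21 (SE 0.0439, edgeR adjusted p = 0.0106). ORC5, another core subunit, had 21.8, 20.5 and 20.6 TPM against 15.9, 16.5 and 15.2 TPM, again without overlap (0.24, SE 0.0626, edgeR adjusted p = 0.0221). This call was lost in 4 of the 6 fits that leave out a library, with an adjusted p of up to 0.0791. ORC1, the ATPase subunit whose level is cell cycle regulated, was at 50.2, 46.9 and 49.6 TPM against 40.4, 40.6 and 32.2 TPM and missed the threshold (0.27, edgeR adjusted p = 0.0626), while without shNC replicate 3 the change was smaller, at 0.16, and passed (edgeR adjusted p = 0.0352). ORC2 and ORC4 had log2 fold changes of -0.19 (edgeR adjusted p = 0.057) and -0.03 (0.674). ORC6, the small subunit outside the core ring, varied most within groups and is described with the uneven genes below.

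Of the 8 licensing and helicase genes, 4 were higher, 2 were lower and 2 did not pass. CDC6, the ATPase that recruits the MCM ring to origins (chromosome 17, 40287633 to 40304657, plus strand), reached 37.7, 38.0 and 39.7 TPM under the hairpin and 24.5, 26.9 and 24.2 TPM in controls. All 3 knockdown libraries lay above all controls, by a log2 fold change of 0.52 (SE 0.0541, edgeR adjusted p = 0.000602), the largest in this role. Its partner CDT1, which carries the MCM ring and is destroyed in S phase at the protein level, went the other way on counts. Depth-scaled counts (CPM, with TMM normalization) of CDT1 were 224, 233 and 233 in shGOT1 and 249, 251 and 251 in shNC, with no overlap (-0.12, SE 0.0249, edgeR adjusted p = 0.0098). Its TPM were 134, 137 and 139 against 137, 138 and 139, which do overlap, and limma on log2(TPM + 1) did not call it (adjusted p = 0.746). After median-of-ratios scaling of TPM, limma called CDT1 lower, as on counts (-0.12, adjusted p = 0.0237).

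Among the 6 ring subunits, MCM6 was listed at 124, 124 and 125 TPM against 100.1, 101.1 and 101.2 TPM. The libraries of each group nearly coincided, and the rise was small (log2 fold change 0.19, SE 0.0203, edgeR adjusted p = 0.000606). MCM4 had 197, 192 and 188 TPM against 164, 166 and 165 TPM (0.12, SE 0.0244, edgeR adjusted p = 0.00985), also without overlap. MCM7, at 316, 317 and 309 TPM against 283, 257 and 271 TPM, passed at 0.10 (SE 0.0267, edgeR adjusted p = 0.0229). Its groups were separate, but the call held in 1 of 6 fits that leave out a library, with adjusted p up to 0.0735 in the others. MCM3 did not pass, at 0.06 (edgeR adjusted p = 0.295). MCM2 was at 225, 191 and 192 TPM against 163, 198 and 164 TPM. Those MCM2 groups overlapped, since shNC replicate 2 lay above 2 of the knockdown libraries, and the test gave 0.11 (SE 0.109, edgeR adjusted p = 0.448), ranging from 0.02 to 0.22 over the fits that leave out a library. For MCM5 the sign depended on the unit, as given with the uneven genes.

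**Figure D2:**
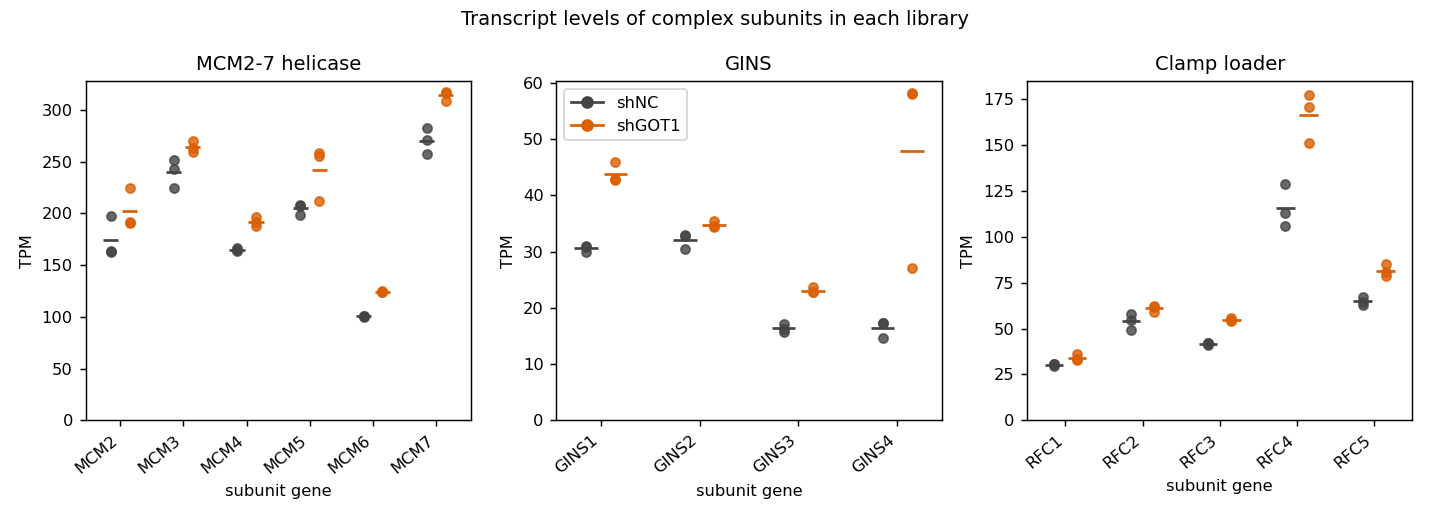
Level in TPM (vertical axes, starting at 0) of the subunit genes of the MCM helicase, GINS and the clamp loader, with 1 point per library and a line at the mean of each group of 3. In every library MCM7 was the highest and MCM6 the lowest of the 6 ring genes, and RFC4 was the highest and RFC1 the lowest loader gene.

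Since TPM is scaled to length, levels can be set side by side between subunits. In every library MCM7 was the highest and MCM6 the lowest ring gene, with a ratio of 2.48 to 2.57 between them in shGOT1 and 2.55 to 2.82 in shNC. The neighbouring levels of MCM2, at 202 ± 19.5 against 175 ± 19.9 TPM (SD, n = 3), and MCM4, at 192 ± 4.59 against 165 ± 1.40 TPM, differed by less than the spread of MCM2. The summed level of the 6 ring genes was 1334 to 1344 TPM in shGOT1 and 1133 to 1173 TPM in shNC. In the origin recognition complex ORC4 was the lowest gene in every library, and the highest was 5.12 to 7.02 times above it. RFC4 stood 3.44 to 5.40 times above RFC1 in the clamp loader. These are levels of messenger RNA and say nothing of the amounts of protein in each complex.

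Helicase activation genes gave 4 rises among 6 members, and 2 did not pass. GINS1, a subunit of the complex that joins the ring with CDC45, had 42.9, 42.7 and 45.9 TPM in shGOT1 and 31.0, 29.9 and 30.8 TPM in shNC. The groups stood apart, by 0.41 on the log2 scale (SE 0.0408, edgeR adjusted p = 0.000477). GINS3 had 23.7, 22.8 and 22.8 TPM against 16.3, 17.2 and 15.7 TPM (0.38, SE 0.0598, edgeR adjusted p = 0.00338). GINS2, from the same complex, was at 34.3, 35.4 and 34.6 TPM against 30.5, 32.8 and 33.0 TPM, which on counts came to 0.01 (SE 0.0448, edgeR adjusted p = 0.902). GINS2 overlaps GSE1 on the opposite strand in the table. MCM10, which is needed for the loaded helicase to start moving, had 30.8, 30.2 and 23.4 TPM against 18.3, 15.8 and 16.6 TPM. Replicate 3 was the lowest of the knockdown libraries and still above all controls (0.51, SE 0.13, edgeR adjusted p = 0.0209), and the call was lost in 4 of 6 fits that leave out a library (adjusted p up to 0.0667). CDC45 had TPM groups that did not overlap but did not pass on counts (0.10, edgeR adjusted p = 0.293), while without shNC replicate 3 the change was 0.17 and passed (0.0155). With limma on log2(TPM + 1) CDC45 was called higher (adjusted p = 0.00413), also after median-of-ratios scaling (0.15, adjusted p = 0.0249). GINS4 is taken up with the uneven genes.

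Of 9 genes of polymerases and primase, 6 were higher, 1 was lower and 2 did not pass. The primase subunits, which lay down the RNA primers, both rose. PRIM1, the catalytic subunit, had 67.5, 66.1 and 70.9 TPM against 48.5, 55.1 and 50.8 TPM (0.26, SE 0.0484, edgeR adjusted p = 0.00629). It overlaps NACA on the same strand, a gene listed at 852 TPM in shGOT1 and 926 TPM in shNC on average, so reads could be split between them. PRIM2, the regulatory subunit, had 39.6, 40.2 and 41.0 TPM against 31.3, 30.7 and 31.6 TPM (0.25, SE 0.0411, edgeR adjusted p = 0.00364). In both genes every knockdown library lay above every control. Their partners in the same complex moved alike, POLA1 at 15.6, 15.3 and 16.4 TPM against 12.9, 13.1 and 12.4 TPM (0.20, edgeR adjusted p = 0.015) and POLA2 at 48.2, 49.3 and 49.2 TPM against 40.6, 38.8 and 38.6 TPM (0.18, edgeR adjusted p = 0.00855). POLA1 was not called without shGOT1 replicate 3 or shNC replicate 3 (adjusted p up to 0.0519).

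POLE2, the second subunit of the leading strand polymerase epsilon, showed the largest called change of the polymerase genes, with 31.3, 28.3 and 26.8 TPM in shGOT1 and 17.0, 19.1 and 20.8 TPM in shNC. No library of one group reached the other (0.44, SE 0.0947, edgeR adjusted p = 0.0112). The catalytic subunit POLE did not pass (0.10, SE 0.0339, edgeR adjusted p = 0.06). In polymerase delta, which copies the lagging strand, the subunits took different signs. POLD2, an accessory subunit, had 233, 208 and 208 TPM against 169, 172 and 168 TPM, higher in all 3 knockdown libraries (0.23, SE 0.0562, edgeR adjusted p = 0.0174), and lost its call without shNC replicate 1 (0.0546) or 3 (0.053). POLD1, the catalytic subunit, had CPM of 191, 195 and 192 against 204, 212 and 202 and was called lower (-0.09, SE 0.0272, edgeR adjusted p = 0.0313). The POLD1 call held in 1 of 6 fits that leave out a library, DESeq2 did not make it (adjusted p = 0.0595), and its TPM of 131, 124 and 129.7 against 116, 133 and 128 overlapped.

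Clamp and loader genes gave 3 rises among 6 members and no fall. PCNA, the sliding clamp that tethers polymerases, was at 255, 256 and 274 TPM against 225, 233 and 239 TPM. On counts the PCNA groups overlapped and the test gave 0.07 (SE 0.0377, edgeR adjusted p = 0.187). The loader subunits that passed were 3 of the small ones. RFC3 had 55.8, 54.1 and 54.7 TPM against 42.0, 42.0 and 40.9 TPM, with a spread far below the difference (0.34, SE 0.0344, edgeR adjusted p = 0.000562). RFC5 had 78.3, 85.4 and 80.6 TPM against 67.3, 62.7 and 64.6 TPM (0.25, SE 0.0369, edgeR adjusted p = 0.0026). For RFC4 the values were 151, 177 and 171 TPM against 113, 106 and 129 TPM (0.27 on counts, SE 0.0414, edgeR adjusted p = 0.00302). In TPM the RFC4 change was larger, at 0.52 with limma on log2(TPM + 1) and 0.41 after median-of-ratios scaling. RFC4 lies on chromosome 3, where the 20 nearest tested genes had a median log2 fold change of 0.21 and 12 of them were called, and it overlaps EIF4A2 on the opposite strand. The large subunit RFC1 (0.07) and RFC2 (0.08) did not pass (edgeR adjusted p = 0.165 and 0.266).

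FEN1, the flap endonuclease that trims Okazaki fragments, had the smallest adjusted p of the members. Its levels (chromosome 11, 61792637 to 61797244, plus strand) were 274, 277 and 272 TPM in shGOT1 and 151, 159.6 and 158 TPM in shNC. The 3 knockdown libraries lay within a few TPM of each other and far above the controls, at a 1.65-fold higher count level (log2 fold change 0.72, SE 0.0267, edgeR adjusted p = 1.26e-05). Over the fits that leave out a library the change ranged from 0.70 to 0.73. FEN1 shares its interval with FADS2 on the same strand and TMEM258 on the opposite strand, which had log2 fold changes of 0.08 and 0.02, and its 20 nearest tested genes had a median of -0.07. LIG1, the ligase that joins the trimmed fragments, was at 62.7, 61.5 and 54.8 TPM against 53.0, 49.8 and 49.8 TPM and did not pass (0.10, SE 0.0477, edgeR adjusted p = 0.125).

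RPA coats single-stranded DNA at the fork, and neither RPA1 (0.06, edgeR adjusted p = 0.323) nor RPA3 passed. RPA3 had 45.1, 50.7 and 44.6 TPM against 42.5, 49.2 and 44.9 TPM, with overlapping groups (0.09, SE 0.081, edgeR adjusted p = 0.394), and it shares its interval with UMAD1 on the opposite strand. Chromatin assembly factor 1 places histones behind the fork. Its large subunit CHAF1A had 107, 105 and 97.9 TPM against 80.5, 80.2 and 80.3 TPM, higher in every knockdown library (0.23, SE 0.031, edgeR adjusted p = 0.00187). CHAF1B, the middle subunit, gave 0.13 and did not pass (SE 0.0598, edgeR adjusted p = 0.12).

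Of the 3 S phase entry genes 1 was higher and 2 did not pass. CCNE2, one of the paralogous E cyclins that activate CDK2, had 30.0, 29.6 and 33.6 TPM in shGOT1 and 18.8, 18.6 and 20.7 TPM in shNC. The lowest knockdown library lay well above the highest control (0.58, SE 0.0638, edgeR adjusted p = 0.000722). The 20 genes nearest to CCNE2 had a median log2 fold change of 0.21, and it overlaps INTS8 and NDUFAF6 on the opposite strand, which had 0.10 and 0.20. CCNE1 had 54.8, 53.3 and 49.7 TPM against 41.7, 44.04 and 41.2 TPM, and did not pass on counts (0.16, SE 0.0727, edgeR adjusted p = 0.124), though it did with limma on log2(TPM + 1) (adjusted p = 0.00535), also after median-of-ratios scaling (adjusted p = 0.0276). The difference between the E cyclins was not tested. E2F1, the activating transcription factor of many of these genes, was at 94.6, 100.2 and 96.9 TPM against 82.3, 84.7 and 85.6 TPM and missed the threshold (0.10, SE 0.0356, edgeR adjusted p = 0.0573).

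**Figure D3:**
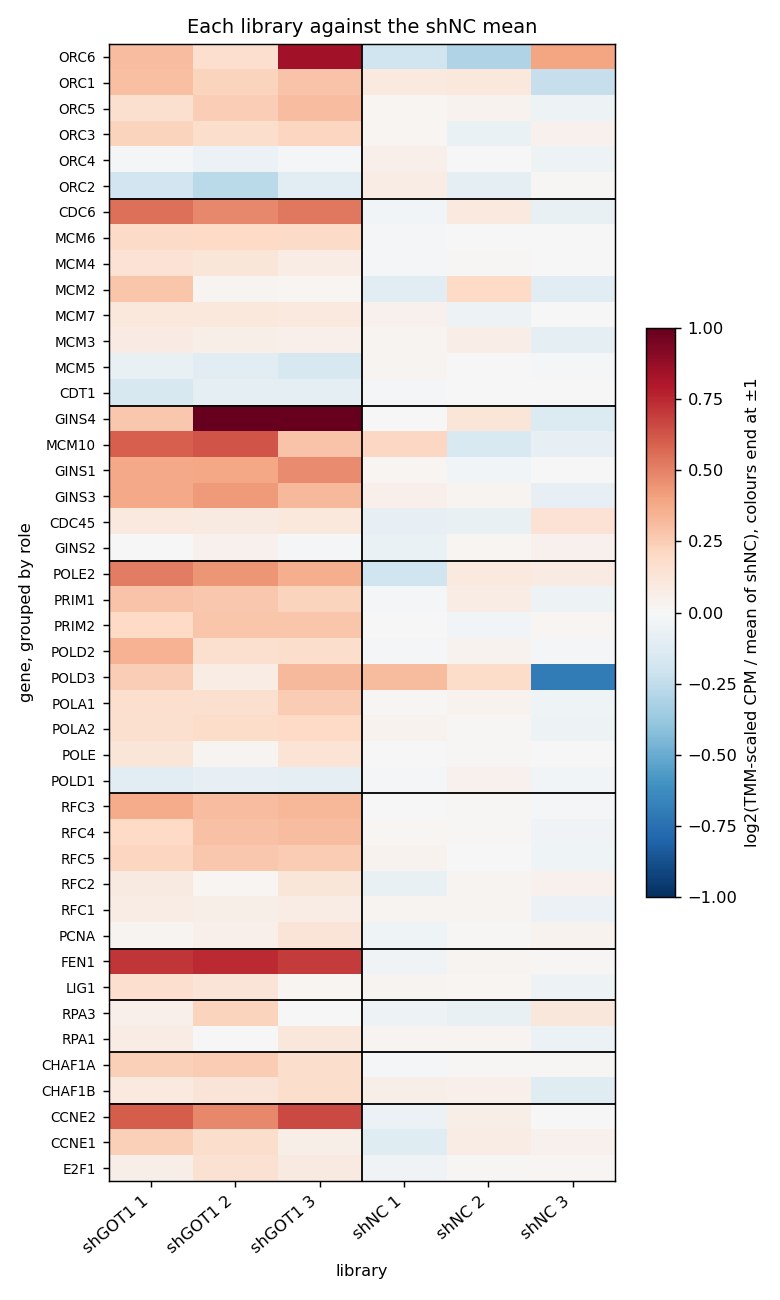
TMM-scaled CPM of each member (rows, by role) in each of the 6 libraries (columns) as a log2 ratio to the mean of the 3 shNC libraries, with the colour scale ending at 1 in both directions. FEN1, CDC6, CCNE2, GINS1 and RFC3 are red in all 3 shGOT1 libraries, while GINS4 is dark red in shGOT1 replicates 2 and 3 and pale in replicate 1, ORC6 is reddest in replicate 3 within both groups, and POLD3 is blue in shNC replicate 3.

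By library, 27 members had higher TMM-scaled CPM in every shGOT1 library than in any control, 4 had lower and 13 overlapped, where 28.5% of all genes tested were higher and 28.6% lower without overlap. All 25 called members were among those that did not overlap. In TPM, 36 members were higher without overlap and none was lower, against a background of 36.4% and 18.8%. With limma on log2(TPM + 1) 32 members were called higher and 0 lower, where 28.0% of all genes tested were higher and 14.1% lower. TPM are not adjusted for the composition of a library, and with limma on log2(TPM + 1) the median change of all genes was 0.093 instead of 0.0045. After median-of-ratios scaling of TPM it was 0.0035, and 23 members were called higher and 1 lower, against 19.1% and 20.0% of all genes. Of the 22 members called higher by edgeR, 21 were called higher in each of the other 8 fits of all 6 libraries that used no block, the exception being MCM7. None of the 3 lower members was.

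Some members were uneven between libraries of 1 group, or differed between count and TPM, and 4 were chosen for description after their values were seen. GINS4, the fourth GINS subunit, had the largest fitted change (1.63, SE 0.447, edgeR adjusted p = 0.027). Its TPM were 27.2, 58.2 and 58.1 in shGOT1 and 17.4, 17.3 and 14.6 in shNC, and its counts were 847, 3328 and 4100 against 657, 776 and 659. Replicate 1 of shGOT1 lay clearly above the controls in TPM. In TMM-scaled CPM it lay just above them, at 31.0 against 25.6, 28.0 and 23.4. Replicates 2 and 3 were several times above the controls in both units. The call was lost in 5 of the 6 fits that leave out a library (adjusted p up to 0.0801). Leaving out shGOT1 replicate 1 gave 2.01 and kept the call. The count per TPM of a gene, divided by the library's median over genes, depends on the transcript length used to compute its TPM. For GINS4 this ratio came to 0.814, 1.27 and 1.27 under the hairpin and to 0.975, 1.07 and 1.06 in controls, so the same libraries stood apart in this measure.

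MCM5, a ring subunit, was higher in TPM and lower in counts. Its TPM were 212, 256 and 258 against 207, 198 and 209, while its TMM-scaled CPM were 353, 344 and 332 against 378, 369 and 366. Neither unit gave overlapping groups, and the directions were opposite. On counts the change came to -0.11 (SE 0.029, edgeR adjusted p = 0.0216), lost without shNC replicate 1 (0.0637) or 2 (0.0525), and with limma on log2(TPM + 1) it was 0.23 (adjusted p = 0.0614). Its count per TPM relative to the library median came to 1.19, 0.949 and 0.924 in shGOT1 against 1.20, 1.22 and 1.17 in controls. Replicate 1 of the knockdown thus lay with the controls, and replicates 2 and 3 lay below them. MCM5 was the 1 member whose count per TPM differed by over 0.2 on the log2 scale between the groups, as 8.21% of genes with such a ratio did, 4.14% of them in its direction, lower in shGOT1.

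ORC6 had 37.5, 32.0 and 52.7 TPM in shGOT1 and 21.7, 24.6 and 37.7 TPM in shNC. Replicate 3 was the highest library in both groups, the groups overlapped, and the test gave 0.47 (SE 0.249, edgeR adjusted p = 0.175). Without shGOT1 replicate 3 the change was 0.24, and without shNC replicate 3 it was 0.72 (edgeR adjusted p = 0.0531). POLD3, an accessory subunit of polymerase delta, had 36.1, 29.8 and 38.8 TPM against 33.4, 31.9 and 22.3 TPM (0.22, SE 0.254, edgeR adjusted p = 0.525). The low value of shNC replicate 3 set the sign, since without it the log2 fold change was -0.04. The count per TPM of POLD3 was also lowest in that library, at 0.957 against 1.21 to 1.30 in the other 5.

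**Figure D4:**
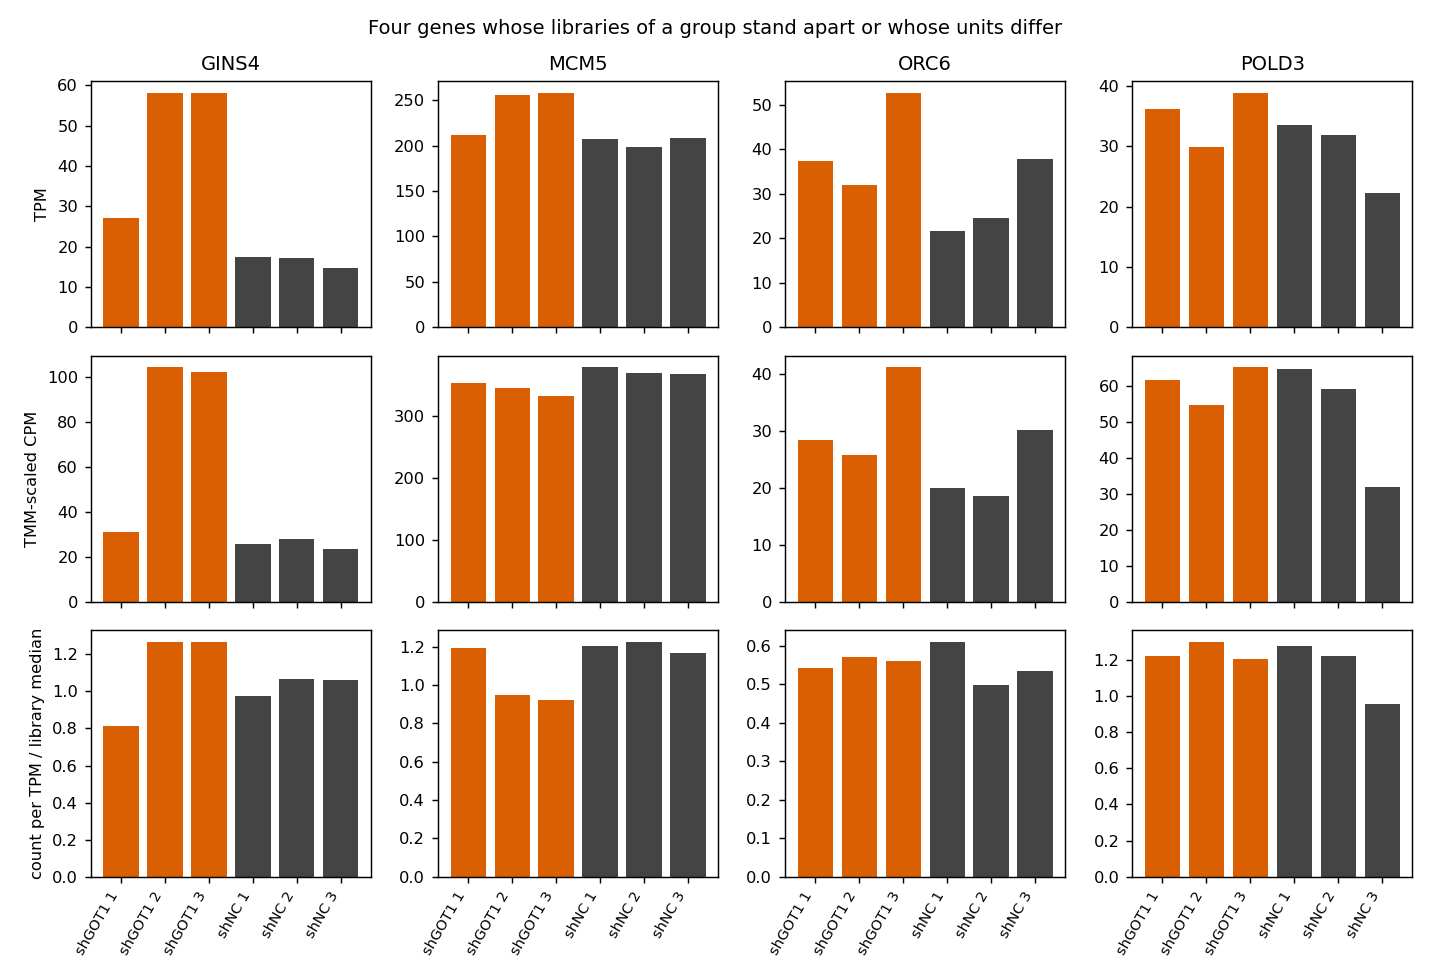
Bars, 1 per library, of TPM, TMM-scaled CPM and count per TPM divided by the library median (rows, vertical axes from 0) of GINS4, MCM5, ORC6 and POLD3. GINS4 stands at 27.2 TPM in shGOT1 replicate 1 and at 58.2 and 58.1 TPM in replicates 2 and 3, and for MCM5 the TPM bars are higher and the CPM bars lower in shGOT1.

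Position on the genome was examined because earlier results of these data showed stretches of chromosomes 1 and 3 that differ between the groups. Neighbours of some other listed genes on chromosome 1 fell together, as given below. This did not hold for all, since the neighbours of CDC7 and CENPF, also on chromosome 1, had medians of 0.16 and 0.15. ORC1 lies on chromosome 1 and MCM2 and RFC4 on chromosome 3, and without them 21 of 41 members were higher and 3 lower, with a median log2 fold change of 0.18. Over the 20 tested genes nearest to each member, other members left out, the median log2 fold change ran from -0.22 beside MCM6 to 0.21 beside CCNE2. Both ends of this range are larger in size than the members' own median of 0.19. The part of position in the members' values was not tested. In the table, 13 members overlap another gene, and their values are uncertain where reads could be assigned to either.

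Other genes of the pathway and the cell cycle were counted in the same fit, to be read against the 21.9% of all genes called higher and 22.8% lower. Of 13 firing kinases and regulators, 8 were higher and 1 was lower, with a median log2 fold change of 0.13. CDK2, the kinase of cyclins E and A, had 69.2, 63.7 and 62.8 TPM against 39.4, 50.1 and 37.2 TPM (0.59, SE 0.0837, edgeR adjusted p = 0.00209), and overlaps PMEL. CDC7, the kinase that acts with DBF4 on the MCM ring, had 31.8, 31.0 and 32.4 TPM against 23.2, 22.2 and 19.8 TPM (0.46, SE 0.0784, edgeR adjusted p = 0.00437). For both kinases the groups did not overlap. MTBP (0.33) and DBF4B (0.23) rose too, and the 1 lower gene, MCMBP, named after its value was seen, encodes an MCM-binding protein (-0.12, edgeR adjusted p = 0.0109). Of 8 genes of deoxynucleotide supply 6 were higher and none was lower, at a median of 0.18, among them RRM2 (0.44), RRM1 (0.29) and TK1 (0.21).

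Among 15 fork protection and checkpoint genes, 1 was higher and 2 were lower, with a median of 0.0149. DSCC1, of an alternative clamp loader, rose (0.42, edgeR adjusted p = 0.0014), and the clamp unloader ATAD5 fell (-0.14, edgeR adjusted p = 0.0264). CLSPN, which encodes the checkpoint mediator claspin, fell (-0.60, edgeR adjusted p = 0.00261) and lies on chromosome 1 among genes with a median of -0.63. Of 12 remaining subunits and maturation enzymes, 3 rose and 2 fell. RPA2, the third RPA subunit and no member here, fell (-0.42, edgeR adjusted p = 0.00047), again on chromosome 1 beside genes with a median of -0.82, while RNASEH2C (0.42) and POLE3 (0.24) rose and POLD4 fell (-0.20). Among 7 genes of chromatin and methylation at the fork 3 rose and 3 fell. The falls on counts were RBBP4 (-0.71) and NASP (-0.29), whose TPM groups overlapped, both on chromosome 1 beside genes with medians of -0.63 and -0.30, and the maintenance methyltransferase DNMT1 (-0.33) on chromosome 19.

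Among 17 mitosis genes none rose and 5 fell, with a median log2 fold change of -0.04, where 22.8% of all genes tested were called lower. CDC20, the activator of the anaphase-promoting complex, was at 375, 379 and 382 TPM in shGOT1 and 530.0, 521 and 509 TPM in shNC, lower without overlap (-0.56, SE 0.0236, edgeR adjusted p = 1.94e-05). It lies on chromosome 1, and its 20 nearest genes had a median of -0.19. CENPF (-0.20), CCNB2 (-0.16) and KIF20A (-0.15) also fell, and the proliferation marker MKI67, named after its value was seen, did not pass (-0.04, edgeR adjusted p = 0.434). Whether the replication and mitosis lists differ was not tested, since lists were described by counts and medians only.

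In the list of E2F and RB control, 10 of 26 tested genes were higher and 7 lower. The D cyclins, which open the RB gate before S phase, diverged. CCND3, named after its values were seen, was at 597, 599 and 609.9 TPM in shGOT1 and 311, 295 and 319 TPM in shNC (0.86, SE 0.0314, edgeR adjusted p = 1.2e-05). CCND1 rose from a low level (1.35, edgeR adjusted p = 0.000133; it overlaps ORAOV1) and CCND2 fell to near 0, at 0.0860, 0.115 and 0.147 TPM against 1.13, 0.952 and 1.06 TPM (-3.23, edgeR adjusted p = 0.000101). CDKN2A, which encodes the CDK4 and CDK6 inhibitor p16 and, in another reading frame, ARF, was at 0.206, 0.0923 and 0.540 TPM against 11.01, 17.5 and 14.2 TPM (-5.83, edgeR adjusted p = 0.000166) and overlaps AL359922.1. All 3 knockdown libraries were far below the controls for this gene, whose value covers the transcripts of both proteins. E2F2, an activating E2F on chromosome 1, fell too (-0.98, edgeR adjusted p = 0.000262), beside genes with a median of -0.86. Of all 99 listed genes that are not members, 98 were tested, 31 were higher and 20 lower, and their median log2 fold change was 0.02.

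**Figure D5:**
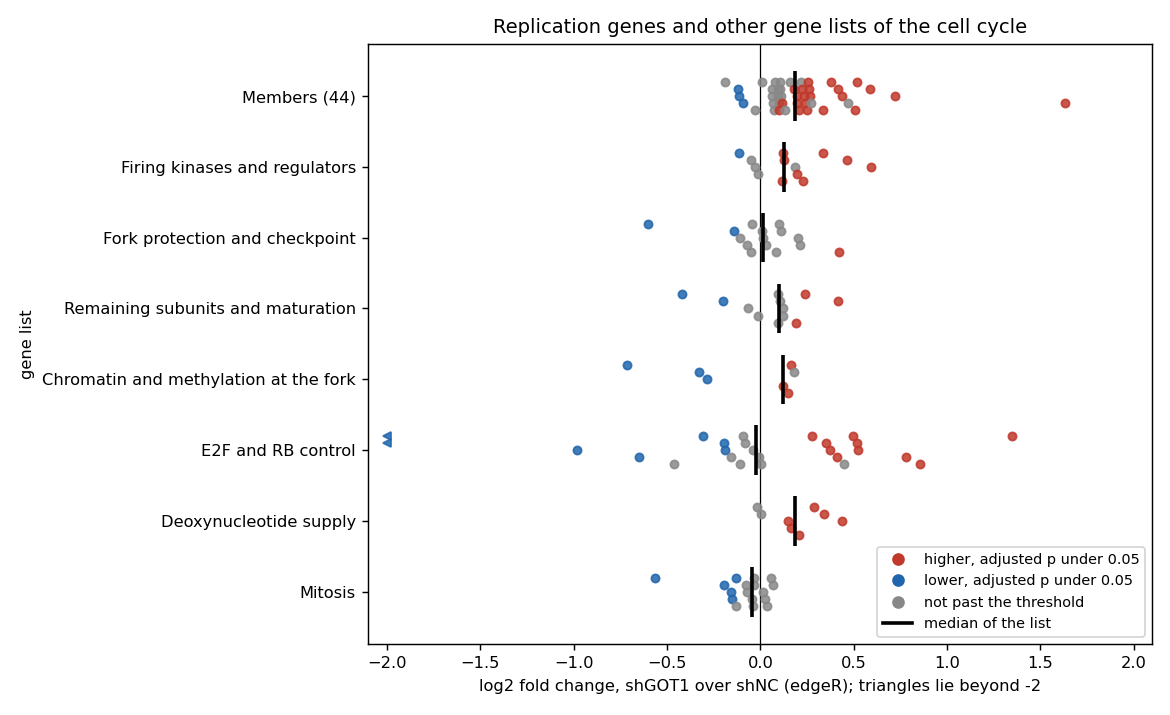
Log2 fold change, shGOT1 over shNC, of each tested gene (points) in the members and in 7 other lists of the cell cycle, with a bar at each list's median. The medians are 0.19 for the members and 0.18 for deoxynucleotide supply and lie at or below 0.13 in the other lists, and 2 genes beyond -2 (CDKN2A and CCND2) are drawn as triangles.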

How the data were processed

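The members and gene lists were chosen with earlier results of these data known. The authors' table holds, per the file headers, counts, TPM and FPKM for each gene in each library, and columns were matched to libraries by the library name in each label. The submitters' processing notes name FastQC, Trimmomatic, StringTie and DESeq2. Aligner, build, strand setting and versions were not given in the sources used here. Deposited counts are whole numbers, and which tool counted them was not stated. Both TPM and FPKM, as deposited, correct for gene length and library size. All 44 member IDs are in GENCODE 29 (GRCh38), 37 with identical coordinates. Printed gene coordinates are the table's.

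Deposited counts were tested with edgeR 4.0.16 in R 4.3.3 (filterByExpr, TMM, glmQLFit, glmQLFTest, 2-sided), with all 6 libraries in 1 fit and Benjamini-Hochberg adjustment over 13735 genes at 0.05. The SE is the log2 fold change divided by the square root of F. Alternatives were DESeq2 1.42.0, limma 3.58.1 on log2(TPM + 1), log2(TPM + 0.1) and log2(FPKM + 1), other filters and scaling, the replicate number as a block, and leaving out each library. On simulated data edgeR recovered 43% of 1.5-fold and 67% of 2-fold changes and called 0.0746% of unchanged genes. DESeq2 gave 75%, 81% and 0.477%, and limma 43%, 67% and 0.0895%. Far fewer genes changed in the simulation than were called here, so these shares need not hold for the data. A member that did not pass may still differ. Every member was named. Library values were given for called members and for the largest change in each role, and other listed genes were named up to 4 per list by size of called change, except 1 that is not reported here. Libraries held 26226977 to 39144890 counts, so that 3 counts were worth 0.0766 to 0.114 CPM.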

Additional observations from a re-analysis of the deposited data

How the results depend on the processing

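The count of members called higher was 18 to 20 and that of members called lower 1 to 3 over the 6 fits that leave out a library, with a median log2 fold change of 0.16 to 0.20 and 2402 to 2592 genes higher and 2706 to 2767 lower overall. With a mean of at least 5 TPM as the filter the members' median was 0.20. With limma on log2(TPM + 1) 0 members were lower, the median was 0.29 and 1939 genes were lower overall. On log2(TPM + 0.1) these were 0, 0.30 and 1931, and the median of all genes shifted to 0.11. On log2(FPKM + 1) 0 members were lower, the median was 0.24 and 2191 genes were lower overall. With TPM rescaled by median of ratios 1 member was lower, and 2745 genes overall. The 32 members called higher on TPM include 10 that did not pass on counts.

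Signs turned for MCM5 on log2(TPM + 1) (0.23), log2(TPM + 0.1) (0.23), log2(FPKM + 1) (0.20) and scaled TPM (0.13), for ORC4 on the same scales (0.11, 0.13, 0.070 and 0.019), for POLD1 on both TPM scales (0.032 and 0.033) and for RPA3 on scaled TPM (-0.065). Over the fits that leave out a library GINS2 ranged from -0.026 to 0.030, below 0 without shGOT1 replicate 2 or shNC replicate 1, and POLD3 from -0.035 to 0.41, below 0 without shNC replicate 3. The causes were not tested. Over all tested genes, the deviations of same-numbered libraries from their group means were almost uncorrelated (0.0282, 0.00893 and -0.000322). With 3 libraries per group, and over all genes at once, this cannot exclude that the numbers pair libraries. With the replicate block 20 members were higher and 2 lower, with 2497 genes higher and 2725 lower overall. POLD1, GINS4, ORC5 and POLA1 were not called in that fit, and ORC6 was (edgeR adjusted p = 0.00592). With 3 libraries per group the precision is limited, and counting error was not separated from other spread.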
